A study of Mus musculus with 6 samples.

Results

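The wild-type (WT) primary osteoblasts of this study were described on their own, to show which genes, matrix components and lineage programmes made up their RNA and how stable these were from library to library. Osteoblasts are the cells that lay down bone. The WT cultures were chosen by the genotype in the sample labels and gave 3 of the 6 libraries of the series. Cells were obtained from 3-day-old mice of the C57BL/6 strain whose genotype label is wild type, and the labels do not say whether these mice carried floxed Tet alleles or Cre. The study digested the parietal bones of the skull cap with collagenase and dispase, pooled the later digests, plated the cells and collected them after 3 days of culture. Addition of an osteogenic medium is not mentioned for these cultures, and whether the 3 libraries came from separate animals or separate cultures is not given either, so the spread between them may be technical. RNA was extracted with TRIzol, and poly(A) RNA was sequenced from directional libraries. The other 3 libraries, from mice that lost all TET enzymes in Prx1-Cre cells, are not described here.

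Most of the skull vault ossifies within sheets of mesenchyme, whereas the limbs are first laid down as cartilage. RUNX2 and, downstream of it, SP7 (osterix) commit cells to the lineage. Committed cells first secrete a matrix of type I collagen and later express alkaline phosphatase, bone sialoprotein and osteocalcin as the matrix mineralizes, and some cells end as osteocytes inside the bone. Collagen chains are hydroxylated and folded in the endoplasmic reticulum, trimmed after secretion and crosslinked outside the cell. Cultures from newborn calvaria can also hold cells of the sutures, periosteum, cartilage margins, vessels and marrow.

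Levels are given as TPM, which is the count of a gene divided by its length and scaled to 1000000 per library, and are listed in the order of replicates 1, 2 and 3. The libraries held 8407496, 10177214 and 8292685 counts. A gene of 2 kb that went undetected could have had up to 0.420 to 0.514 TPM, the level of 3 counts, and such floors cover counting error only. Between 14723 and 15036 genes reached 1 TPM in a library, and 13544 of 55471 genes (24.4%) did so in all 3. Among protein-coding genes it was 11437 of 21974, the closer background for the gene lists below. The 100 highest genes held 33.7%, 34.3% and 35.4% of TPM (34.5% ± 0.905, SD, n = 3), and between 288 and 327 genes were enough to hold 50% of it.

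Extracellular matrix genes stood at the top of the protein-coding transcriptome. Of the 40 highest protein-coding genes, 16 belonged to a list of collagens, collagen-processing enzymes, bone matrix proteins, adhesive proteins, proteoglycans, elastic fibre proteins or matrix proteases. The 158 genes of these lists together held 8.73%, 8.62% and 7.92% of TPM, and their median gene was at 81.0 TPM. The median over all 55471 genes was 0 TPM, because 31670 of them, coding or not, had no count. Other chosen lists had higher medians, with 589 TPM for the cytoskeleton and 158 TPM for folding and secretion in the endoplasmic reticulum. Thbs1, which encodes the adhesive glycoprotein thrombospondin 1, was the highest protein-coding gene of the nucleus by the deposited counts and lengths, with 11955, 11838 and 7336 TPM. Col1a1, the alpha 1 chain of type I collagen, followed with 10004, 9535 and 8912 TPM (9484 ± 548, SD, n = 3). Sparc, the calcium- and collagen-binding protein osteonectin, had 7582, 7922 and 6321 TPM. All 3 genes were lowest in replicate 3, and Thbs1 was the one of them with the widest gap. Their order depended on the length, since with 1 principal transcript per gene the means were 9356 TPM for Sparc, 8411 TPM for Thbs1 and 8198 TPM for Col1a1.

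The other genes near the top served secretion, the cytoskeleton, translation and mitochondrial respiration. Lox, the lysyl oxidase that starts collagen crosslinking, had 5239, 5394 and 4244 TPM, and Serpinh1, the collagen chaperone HSP47, had 4901, 4650 and 4464 TPM. Actb, cytoplasmic beta actin, had 4475, 4350 and 4008 TPM. Igfbp2, which binds insulin-like growth factors, had 4324, 3954 and 1431 TPM, so that replicate 3 lay far below the other two. The mitochondrially encoded mt-Co1, a subunit of cytochrome oxidase, had 8275, 8224 and 14955 TPM, above Thbs1 in replicate 3 and below it in the other two.

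**Figure D1:**
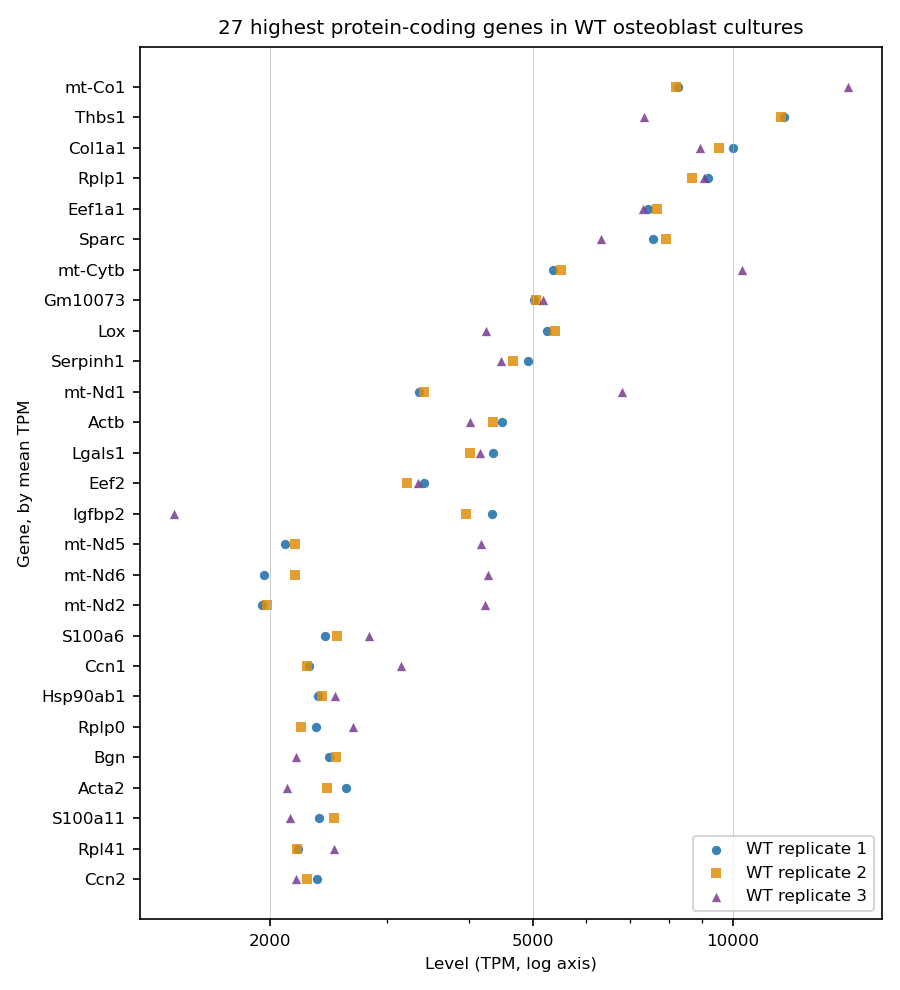
Levels in TPM (log axis) of the 27 protein-coding genes with the highest mean over the WT libraries, 1 point per library. Thbs1 (7336 to 11955 TPM), Col1a1 (8912 to 10004 TPM) and Sparc (6321 to 7922 TPM) are among the highest, and the widest gaps between libraries are those of Igfbp2 and the mitochondrially encoded genes.

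Type I collagen is a heterotrimer of COL1A1 and COL1A2 chains. Col1a1 (ENSMUSG00000001506, chromosome 11, 94936224 to 94953042, GRCm38) ranked 3 among protein-coding genes. Col1a2 (ENSMUSG00000029661, chromosome 6, 4504814 to 4541544) ranked 34, with 2078, 2038 and 1806 TPM. The ratio of Col1a1 to Col1a2 was 4.81 ± 0.13 in TPM (SD, n = 3) and 2.54 ± 0.07 in counts, and it was 2.29 ± 0.06 when TPM was recomputed with the length of 1 principal transcript per gene. The deposited length of Col1a2, 12426 bases, sums all its exons and is over its principal transcript of 5348 bases, whereas the 2 lengths of Col1a1 are 6563 and 5930 bases. The size of this ratio therefore depended on the length used, while its spread over the libraries was small on each scale.

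The 44 genes named as collagen chains summed to 20924, 20155 and 18492 TPM, and 22 of them had a mean of at least 10 TPM. Next after type I came Col2a1 (ENSMUSG00000022483, chromosome 15, 97975602 to 98004695), the collagen of cartilage, with 1865, 1739 and 2219 TPM. Col5a1 and Col5a2, whose chains nucleate type I fibrils, had 824, 808 and 778 TPM and 1056, 1054 and 926 TPM. Col3a1, the fibrillar collagen of soft connective tissue, had 476, 466 and 361 TPM, or 0.046 times the TPM of Col1a1 on average. Col8a1, a short-chain network collagen, had 1280, 1274 and 684 TPM, the widest gap among the high collagens. The microfibrillar Col6a1 had 896, 880 and 822 TPM, and Col12a1, a fibril-associated collagen, had 471, 477 and 380 TPM. Col10a1, the collagen of hypertrophic cartilage, was low, with 2.74, 3.13 and 3.37 TPM. Of the 22 collagens at 10 TPM or more, 17 were lowest in replicate 3, and the number was 15 to 17 under other scalings (CPM, TMM factors, or no mitochondrially encoded genes in the total). Over all 8678 genes at that level, 4497 were lowest in replicate 3 (3493 to 4497 by scaling).

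The machinery that makes collagen was almost complete. Of 28 genes for collagen hydroxylation, folding, trimming and crosslinking, 27 reached 1 TPM in all libraries (96.4%) and 26 had a mean of at least 10 TPM, and their summed level of 15927, 15733 and 14905 TPM differed little. P4hb, the beta subunit of prolyl 4-hydroxylase, had 1518, 1511 and 1717 TPM. The alpha subunits of that enzyme were lower, with P4ha1 at 168, 163 and 161 TPM. Fkbp10, a collagen-directed prolyl isomerase, had 734, 699 and 779 TPM, and Loxl2 led the lysyl oxidase relatives of Lox with 649, 679 and 883 TPM. Pcolce, which enhances removal of the C-propeptide, had 370, 351 and 342 TPM, against 71.4, 72.4 and 102 TPM for Bmp1, the protease that makes the cut. P3h2, a prolyl 3-hydroxylase, was the lowest member with a mean of 1.14 TPM.

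Among 22 matricellular and adhesive proteins all reached 1 TPM in every library, and their sum was 22385, 22021 and 18275 TPM. Ccn1 and Ccn2, secreted regulators of adhesion and growth factor signalling, had 2293, 2271 and 3151 TPM and 2354, 2271 and 2186 TPM. Fn1, fibronectin, had 2057, 1906 and 2101 TPM. Tnn, a tenascin of bone and periosteum, was highest in replicate 3, with 228, 232 and 454 TPM, and Ccn3 was lowest there, with 255, 265 and 75.5 TPM. Postn, periostin of the periosteum and sutures, was modest, with 29.96, 33.9 and 47.3 TPM.

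The small leucine-rich proteoglycans bind collagen fibrils and set their diameter. Bgn, biglycan, was steady with 2456, 2514 and 2192 TPM. Fmod, fibromodulin, had 1735, 1732 and 972 TPM, and Lum, lumican, had 979, 1057 and 443 TPM. Dcn, decorin, was far lower than biglycan in these cultures, with 121, 136 and 51.5 TPM. Of the 9 proteoglycans with a mean of at least 10 TPM, 8 were lowest in replicate 3 under every scaling tried, and 4 spanned more than 2-fold. In the background of 8678 genes, 4497 were lowest in replicate 3 and 222 spanned more than 2-fold (2.56%).

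Proteases and their inhibitors were also abundant, and the inhibitors led. Timp1, an inhibitor of metalloproteinases, had 1855, 1757 and 2734 TPM. Serpinf1, the antiangiogenic factor PEDF whose loss causes brittle bones, had 2133, 2042 and 1889 TPM. Mmp2, gelatinase A, had 1180, 1141 and 954 TPM, and Mmp14, its membrane-bound activator, had 342, 319 and 290 TPM. The ratio of Timp1 to Mmp2 was 1.57 and 1.54 in replicates 1 and 2 and 2.87 in replicate 3. Mmp13, the collagenase of osteoblasts and hypertrophic cartilage, had 193, 200 and 133 TPM, whereas Mmp3, stromelysin 1, had a mean of 1.12 TPM. Mmp9, gelatinase B, was low but uneven, with 0.774, 2.61 and 6.34 TPM. Of the 19 genes of this group with a mean of at least 10 TPM, 15 were lowest in replicate 3 under every scaling. Of all 8678 genes at that level, 4497 were lowest there. The summed level of the group was still highest in replicate 3, at 12600 TPM against 11351 and 11226 TPM.

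**Figure D2:**
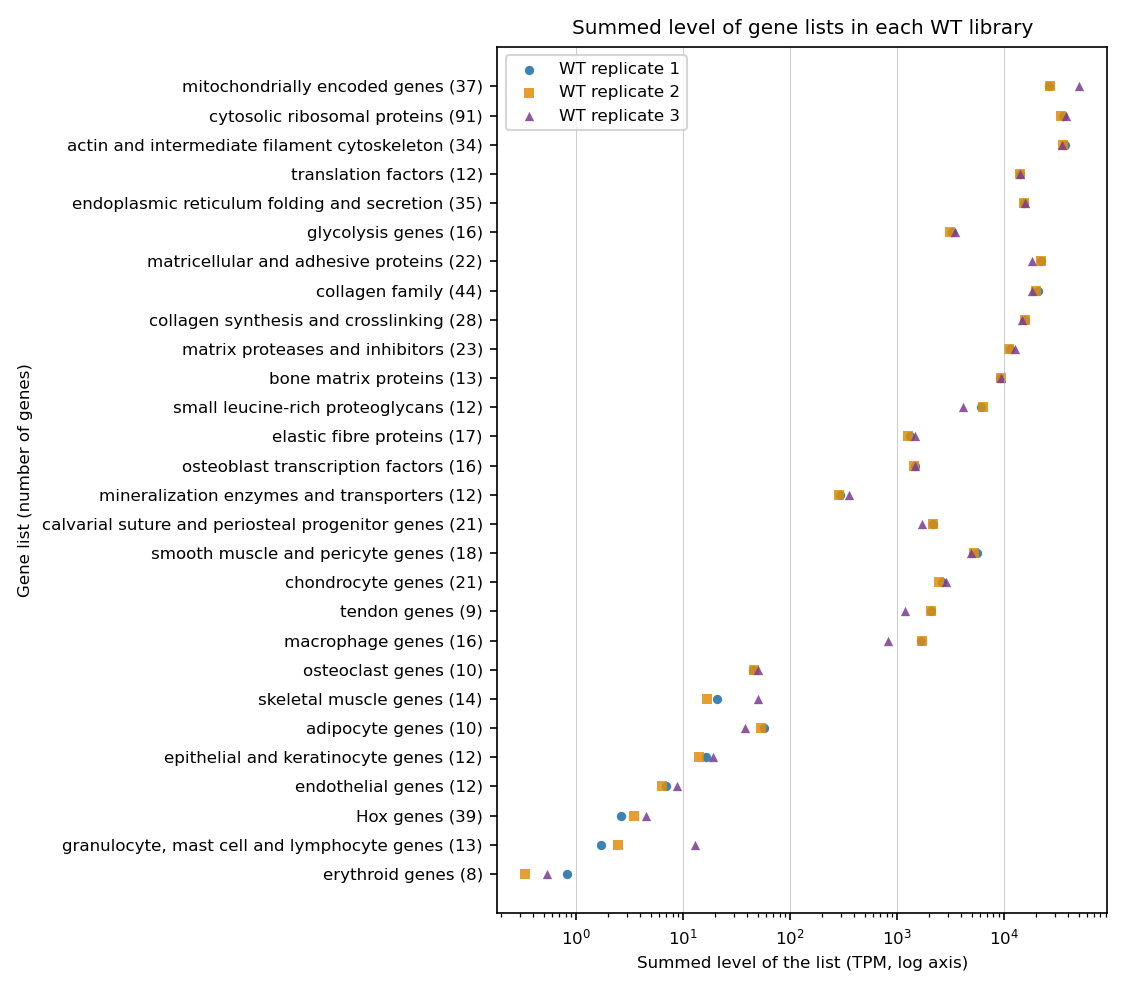
Summed level in TPM (log axis) of 28 gene lists in each WT library, with the number of genes of each list in parentheses. The points of the collagen family (18492 to 20924 TPM) nearly overlap, while those of mitochondrially encoded (26633 to 50755 TPM) and macrophage genes (833 to 1704 TPM) lie about 2-fold apart, and endothelial, granulocyte and erythroid lists stay at or under 13.0 TPM.

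The osteoblast label was checked against its markers. The early programme was present in every library. Runx2 (ENSMUSG00000039153, chromosome 17, 44495987 to 44814797) was nearly constant, with 29.7, 30.5 and 30.2 TPM (CV 1.41%, the SD as a percentage of the mean). Sp7 (ENSMUSG00000060284, chromosome 15, 102356606 to 102367182) had 89.7, 92.6 and 226 TPM, so replicate 3 was over 2-fold above the other two while Runx2 was level. Other regulators of the lineage included Atf4, which drives late osteoblast genes and amino acid import (513, 527 and 528 TPM), and Msx2, a skull homeobox factor (209, 197 and 187 TPM). Twist1, which restrains RUNX2, had 224, 203 and 161 TPM. Dlx5, a homeobox activator of osteoblast genes, had 18.5, 16.5 and 22.7 TPM. Of 16 such factors, 13 reached 1 TPM in all libraries (81.3%). Lef1, a nuclear effector of WNT signalling, was the lowest, with 0.117, 0.414 and 0.338 TPM.

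Genes of the late programme differed widely in level, and osteocalcin and the osteocyte genes Sost, Mepe and Fgf23 were at or near 0. Spp1, the mineral-binding osteopontin, was high with 1540, 1439 and 2910 TPM. Alpl, tissue-nonspecific alkaline phosphatase, had only 12.1, 11.3 and 38.8 TPM, and Ibsp, bone sialoprotein, had 7.95, 8.67 and 5.74 TPM. Bglap2, an osteocalcin gene, had 4, 5 and 1 counts (2.91, 2.97 and 0.700 TPM), and its near-identical neighbours Bglap (0, 1 and 2 counts) and Bglap3 (0 in each library) held no more, so reads shared between these copies could have been divided or lost. Dmp1, a matrix phosphoprotein of late osteoblasts and osteocytes, had 3, 1 and 2 counts, and Phex, an endopeptidase of phosphate control, had 3, 3 and 5. The osteocyte products Sost (sclerostin), Mepe and Fgf23 had 0 counts in all libraries, which allows up to 0.407 to 0.498 TPM for Sost. Of the 10 osteocyte genes, 3 had a mean of at least 10 TPM, namely Pdpn (podoplanin, 202, 210 and 183 TPM), Ackr3 (a chemokine receptor, 31.1, 36.4 and 54.2 TPM) and Irx5 (a homeobox factor, 29.7, 25.2 and 27.3 TPM), and 4 had no count. Pth1r, the receptor for parathyroid hormone, was present with 36.0, 33.3 and 64.5 TPM. Spp1, Pth1r, Alpl and Cgref1 are the 4 of the 12 mature osteoblast genes with a mean of at least 10 TPM, and all 4 were highest in replicate 3. Of all genes at that level, 2784 (32.1%) were highest there, and 3166 to 3722 under the other scalings, while it was 2634 of 7906 with pseudogene counts added. In bulk RNA, fewer cells of a type and less RNA per cell cannot be told apart.

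Genes for mineral handling other than Alpl ranged from moderate to low. Slc20a1, a phosphate importer, had 120, 115 and 168 TPM, and Ank, which exports pyrophosphate or ATP, had 50.6, 48.6 and 57.6 TPM. Enpp1, which makes pyrophosphate, had 3.67, 3.88 and 6.21 TPM. Phospho1, a phosphatase of matrix vesicles, had 2.53, 2.07 and 0.488 TPM, and Smpd3, a sphingomyelinase needed for mineralization, had 1.24, 1.28 and 1.45 TPM. Omd, a mineral-binding proteoglycan, and Mgp, an inhibitor of calcification, had 49.97, 53.5 and 25.8 TPM and 67.5, 56.2 and 42.8 TPM.

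Most genes of suture and periosteal progenitors were detected. Of 21 such genes 20 reached 1 TPM in all libraries (95.2%), with a sum of 2166, 2160 and 1699 TPM. The share was similar for macrophage genes (93.75%) and smooth muscle and pericyte genes (94.4%), so it does not separate these lists. Over all genes in the table it was 24.4%. Prrx1, a homeobox factor of skeletal mesenchyme, had 274, 291 and 212 TPM, and Six2 had 144, 156 and 130 TPM. Ctsk, cathepsin K, known from osteoclasts and also from periosteal stem cells, had 246, 235 and 192 TPM. Sfrp2, a secreted WNT modulator, had 125, 118 and 32.8 TPM. Gli1 and Axin2, targets of hedgehog and WNT signalling that mark suture stem cells, were low, with means of 1.11 and 5.34 TPM. The general fibroblast genes Lox and Lum shared the high matrix levels given above, but Dpt, Pi16 and Clec3b, which mark dermal and adventitial fibroblasts, had 3.18, 2.92 and 0.574 TPM for Dpt and at most 0.282 TPM for the other two.

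Several cartilage and tendon genes were also abundant. Col2a1 stood at 0.186, 0.182 and 0.249 times the TPM of Col1a1. Acan, aggrecan, had 107, 101 and 130 TPM, and Sox9, the master regulator of chondrocytes, had 78.1, 70.7 and 46.5 TPM. Hapln1, a link protein of aggrecan, had 70.5, 70.0 and 44.0 TPM, and Comp had 36.3, 34.7 and 93.2 TPM. All 3 chains of type IX collagen were detected, with Col9a1 at 37.8, 36.2 and 36.9 TPM. In contrast, Matn1, the matrilin of tracheal and epiphyseal cartilage, had 5.65, 2.66 and 3.79 TPM, Snorc had a mean of 0.310 TPM, and the hypertrophic signal Ihh had at most 0.225 TPM. The tendon genes Tnmd and Scx had 249, 255 and 137 TPM and 91.2, 77.7 and 71.2 TPM, but of the 9 tendon genes only 5 reached 1 TPM in all libraries (55.6%) and their median was 2.702 TPM. The cartilage list did not move as one over the libraries, since Col2a1, Acan and Comp were highest in replicate 3 while Sox9, Hapln1 and Cnmd were lowest there.

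**Figure D3:**
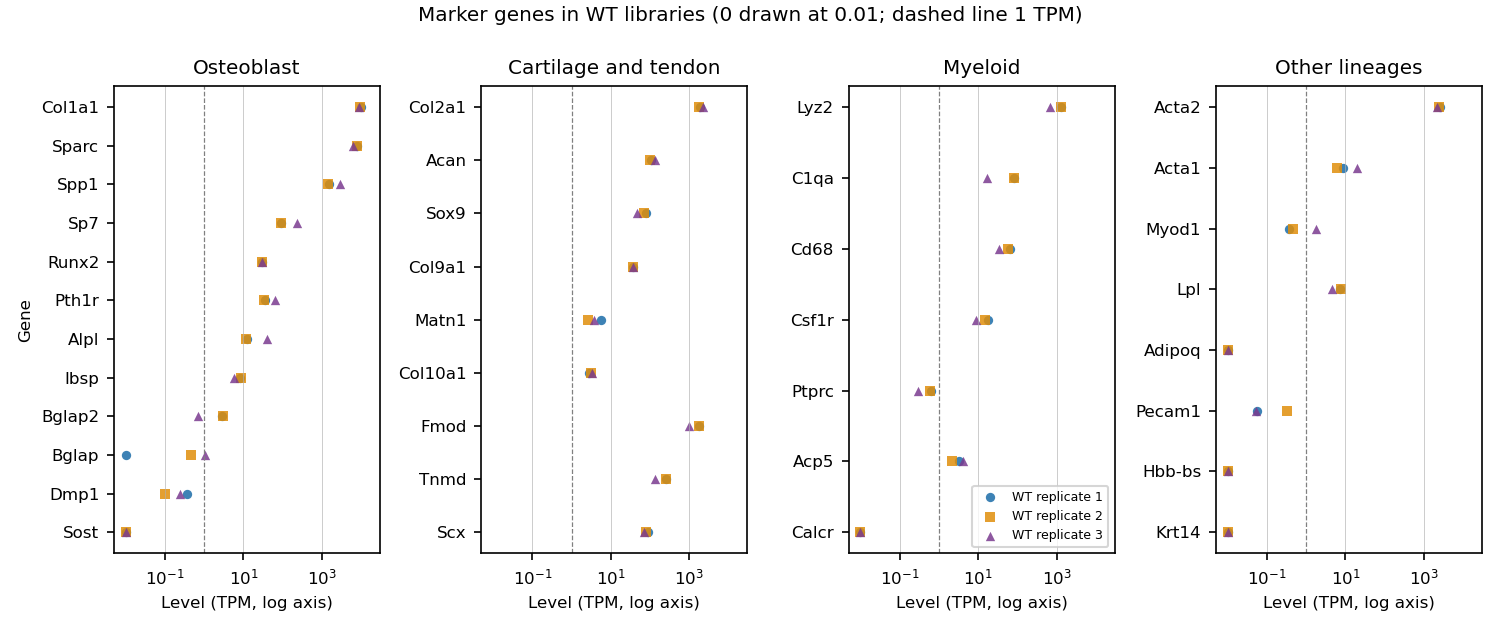
Levels in TPM (log axis, 0 drawn at 0.01, dashed line at 1 TPM) of marker genes of osteoblasts, cartilage and tendon, myeloid cells and other lineages, 1 point per WT library. Osteoblast markers fall from Col1a1 (8912 to 10004 TPM) to Sost (0 counts), cartilage markers from Col2a1 to Col10a1, and C1qa (16.5 to 82.7 TPM) shows the wide spread of the myeloid genes.

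Macrophage genes were detected in every library, with a sum of 1674, 1704 and 833 TPM. Lyz2, lysozyme, had 1280, 1313 and 672 TPM. C1qa, a chain of complement C1q made by tissue macrophages, had 81.0, 82.7 and 16.5 TPM, and Cd68, a lysosomal protein, had 66.0, 56.8 and 33.6 TPM. Csf1r, the receptor that macrophages need to live, had 17.98, 15.2 and 8.74 TPM. Of the 11 macrophage genes with a mean of at least 10 TPM, 7 spanned more than 2-fold, against 222 of all 8678 genes (2.56%). Under every scaling 9 of the 11 were lowest in replicate 3, against 4497 of the 8678 (3493 to 4497 by scaling). Adgre1 (F4/80) went the other way, with 12.5, 11.2 and 20.5 TPM, as did Marco, a scavenger receptor of macrophages, with 13, 11 and 158 counts. Ptprc (CD45), the common leukocyte antigen, was at most 0.617 TPM. The 10 osteoclast genes summed to 45.2, 46.6 and 50.1 TPM, mostly from Nfatc1, a transcription factor (19.1, 18.5 and 25.2 TPM), and Itgb3, an integrin chain (17.9, 18.2 and 11.8 TPM). Acp5, the acid phosphatase of osteoclasts, had 3.21, 2.21 and 4.22 TPM, and Calcr and Dcstamp had 0 counts.

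Lists of other cell types were lower. The 12 endothelial genes summed to 6.89, 6.40 and 8.85 TPM, with Pecam1 at most 0.315 TPM. The 8 erythroid genes summed to at most 0.831 TPM, and the 12 epithelial genes to 16.6, 14.3 and 19.1 TPM, mostly from Krt19, a keratin, while Krt14 and Epcam had 0 counts in each library. The 10 adipocyte genes summed to 56.7, 54.0 and 38.1 TPM, led by Cebpa, a transcription factor (32.9, 30.4 and 20.4 TPM), with 0 counts of Adipoq, the hormone of fat cells. The 12 Schwann cell and neuron genes summed to 127, 125 and 155 TPM, mostly from Tubb3, a tubulin (90.2, 87.7 and 109 TPM). The 10 meningeal genes summed to 320, 312 and 260 TPM, most of it from Zic1 and Zic2, while Slc47a1 had 0 counts. The 13 granulocyte, mast cell and lymphocyte genes summed to 1.70, 2.48 and 13.0 TPM, of which S100a8, a neutrophil protein, held 9.50 TPM in replicate 3. Skeletal muscle genes were low but also highest in replicate 3, with a sum of 20.8, 16.9 and 50.6 TPM. Acta1, skeletal actin, had 8.70, 6.20 and 19.8 TPM, and Myog, a myogenic regulator, had 0.458, 1.31 and 4.41 TPM. The part of these cells in the differences of replicate 3 was not tested.

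Of 18 smooth muscle and pericyte genes, 17 reached 1 TPM in all libraries, and their levels differed widely. Acta2, smooth muscle actin, which cultured mesenchymal cells also express, had 2602, 2439 and 2118 TPM, and Myl9, a myosin light chain, had 1422, 1325 and 1222 TPM. Cnn1, calponin, had 85.7, 81.6 and 105 TPM. Myh11, the myosin of mature smooth muscle, had 4.10, 3.87 and 1.04 TPM and Myocd, its transcriptional driver, had a mean of 0.546 TPM. Pdgfrb, a receptor of pericytes and mesenchymal cells, had 251, 247 and 195 TPM.

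Transcription factors that mark position included many of the head. Alx4, a frontonasal homeobox gene, had 90.8, 91.5 and 89.1 TPM, and En1, which patterns the calvaria, had 46.7, 45.9 and 40.6 TPM. Zic1, a factor of the dorsal head and meninges, had 124, 122 and 101 TPM. Tbx15 had 54.8, 49.7 and 51.8 TPM. Of 35 craniofacial factors, 23 reached 1 TPM in all libraries (65.7%), against 11437 of 21974 protein-coding genes. Pax3, Otx2 and Hand2 had 0 counts. The 39 Hox genes, which specify levels of the trunk and limbs, were nearly silent: 28 had no count in any library and their sum was 2.64, 3.49 and 4.53 TPM. Hoxc13 accounted for most of it, with 10, 13 and 16 counts. Of 7 factors of limb identity, 3 reached 1 TPM in all libraries. Tbx15, which is on both lists, and Lmx1b, a factor of limb and skull (21.6, 18.7 and 17.6 TPM), held most of their sum of 78.3, 70.6 and 71.7 TPM, while Tbx5, Pitx1 and Hand2 had 0 counts.

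Transcripts of growth factors and their receptors were also read. Among BMP and TGF-beta ligands, Tgfb3 led with 483, 460 and 325 TPM, ahead of Tgfb2 (26.7, 25.5 and 24.4 TPM) and Tgfb1 (13.9, 12.7 and 14.6 TPM). The activin chains Inhba and Inhbb had 331, 340 and 313 TPM and 335, 318 and 314 TPM. Bmp4, a bone morphogenetic protein, had 176, 181 and 80.8 TPM, whereas Bmp2 had 4.63, 3.62 and 4.27 TPM. Bmpr1a, a BMP receptor, had 69.3, 70.5 and 56.0 TPM, and Tgfbr2, the TGF-beta receptor, had 208, 212 and 142 TPM.

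WNT signalling promotes bone formation through LRP5, LRP6 and beta-catenin. Ctnnb1, which encodes beta-catenin, had 412, 414 and 335 TPM, and Fzd1 was the highest receptor, with 155, 147 and 135 TPM. Wnt9a (39.8, 39.8 and 36.5 TPM) and Wnt5a (20.2, 19.4 and 18.3 TPM) were the highest ligands. Of the secreted modulators, Dkk3 had 509, 528 and 307 TPM and Dkk2 had 50.8, 51.7 and 23.8 TPM, while Dkk1 had a mean of 0.0385 TPM and Sost none. Of the 16 WNT genes with a mean of at least 10 TPM, 14 were lowest in replicate 3 under every scaling. Wnt10b was an exception, with 10.2, 10.05 and 20.7 TPM. Over all 8678 genes at that level, 4497 were lowest in replicate 3.

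The insulin-like growth factor group was led by Igfbp2, and its ligands differed in stability. Igf2 had 62.1, 58.5 and 63.3 TPM, but Igf1 had 44.8, 47.9 and 15.8 TPM, so their ratio was 1.39, 1.22 and 4.0. Fgf7 was the highest FGF, with 76.2, 79.0 and 105 TPM, and Fgfr1 and Fgfr2, the receptors mutated in premature suture fusion, had 67.2, 65.9 and 54.6 TPM and 45.0, 48.5 and 38.8 TPM. Csf1, which supports macrophages and osteoclasts, had 568, 546 and 764 TPM. Tnfrsf11b (osteoprotegerin), the decoy that blocks RANKL, had 178, 189 and 260 TPM against 3.83, 4.51 and 7.23 TPM for Tnfsf11 (RANKL itself), a ratio of 46.6, 41.8 and 35.9. Among hormone receptors, Nr3c1 for glucocorticoids had 62.8, 63.1 and 52.8 TPM, Vdr for vitamin D had 11.3, 11.7 and 22.0 TPM, and Esr1 for oestrogen had a mean of 0.170 TPM. The TET genes themselves were low in WT cells, with means of 9.71 TPM for Tet3, 3.11 TPM for Tet2 and 2.33 TPM for Tet1.

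Cytoskeletal genes held 3.59% of TPM on average. All 34 members reached 1 TPM, with a median of 589 TPM and a sum of 36913, 35956 and 34799 TPM, or 52546, 51294 and 49629 TPM with the counts of near-identical pseudogenes added. The last values are on a changed scale, since the addition raised the TPM of other genes too (see Col1a1 below). Vim, vimentin, the intermediate filament of mesenchymal cells, had 1804, 1699 and 1806 TPM. Actin and myosin genes are known targets of serum response factor, which binds the CArG box, so promoters were searched for the letters of this box on both strands. Promoter sequences of 300 bases (250 before and 50 after the start) were taken from RefSeq (GRCm38.p6) and matched 29 of the 34 genes. The box was found in 4 of them (13.8%), namely Actg1, Anxa5, Myl6 and Myl9, against 288 of 16512 protein-coding genes with a promoter (1.74%) and 5 of the 100 highest of them (5.0%). It was found in 1 of 13 smooth muscle and pericyte genes with a promoter (7.69%). For immediate early and heat shock genes it was 0 of 13. Boxes more than 250 bases before the start were outside the search. A match is a description of the letters and not a bound site. The box of Anxa5 did not lie wholly before the start and is not shown. The windows of the 3 actin and myosin genes are shown with the box in capitals, so that its spacing from the start can be read with the gene's level. They lie at chr11:120348566-120348595 (minus strand), chr10:128493040-128493069 (minus strand) and chr2:156775293-156775322 (plus strand), and the boxes end 80, 40 and 151 bases before the start.
Actg1: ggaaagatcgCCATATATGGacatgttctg
Myl6: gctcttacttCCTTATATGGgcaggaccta
Myl9: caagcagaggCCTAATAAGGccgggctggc
Myl9 had 1422, 1325 and 1222 TPM, and the mean levels of Myl6 and Actg1 were 545 and 428 TPM. They were 1116 and 2084 TPM, on the changed scale, when the counts of their matched pseudogenes were added.

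Genes of the secretory pathway were even over the libraries. Of 35 genes for folding and secretion in the endoplasmic reticulum, 34 reached 1 TPM in all libraries, with a sum of 15438, 15332 and 15827 TPM. Calr, calreticulin, had 1734, 1815 and 1945 TPM, and Hspa5, the chaperone BiP, had 1170, 1192 and 1296 TPM. The glycolytic enzyme Aldoa had 925, 878 and 953 TPM and Ldha, lactate dehydrogenase, had 641, 632 and 763 TPM. The lists for secretion and glycolysis had median CVs of 4.66% and 6.58%, against 8.30% for all genes at the same minimum level. Their median levels were 158 and 65.9 TPM, and the CV was smaller at such levels. It was 6.56% over all genes of 100 to 300 TPM and 7.57% over those of 30 to 100 TPM. The part of level in the evenness of the lists was not tested.

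The cultures contained dividing cells. All 25 proliferation genes reached 1 TPM in every library. Mki67, the antigen of cycling cells, had 17.8, 16.3 and 25.7 TPM, and Top2a, topoisomerase II, had 17.8, 17.3 and 25.1 TPM. The cyclins of G1 ran the other way, with Ccnd1 at 478, 458 and 253 TPM and Ccnd2 at 719, 730 and 461 TPM. Of the 22 genes with a mean of at least 10 TPM, 17 were highest in replicate 3, and also under every scaling, with 16 when pseudogene counts were added. Of all 8678 genes at that level, 2784 (32.1%) were highest there, and 3166 to 3722 under the other scalings. The summed level of the 25 genes was nevertheless lowest in replicate 3 under every scaling, with 1702.7, 1664.5 and 1358.1 TPM. The inhibitor Cdkn1a (p21) was high and even, with 1139, 1134 and 1034 TPM.

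Agreement between libraries was then compared gene by gene over the 8678 genes with a mean of at least 10 TPM. The median absolute difference was 0.08 on the log2 scale between replicates 1 and 2, 0.17 between replicates 1 and 3, and 0.18 between replicates 2 and 3. Between replicates 1 and 2, 20 genes differed by more than 2-fold, against 168 and 165 in the pairs with replicate 3. These differences went both ways, with 85 genes higher and 83 lower in replicate 3 than in replicate 1. The median CV over all 3 libraries was 8.30%. It was 9.92% for genes of 10 to 30 TPM and 6.18% for genes of 300 to 1000 TPM. Over 2 libraries the median CV was 3.90% without replicate 3, 8.57% without replicate 1 and 8.54% without replicate 2. The counting error of 1 library had a median of 4.94%. Figures from 1, 2 and 3 libraries are not directly comparable. Each pair has 1 library a side, so none of these differences was tested.

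**Figure D4:**
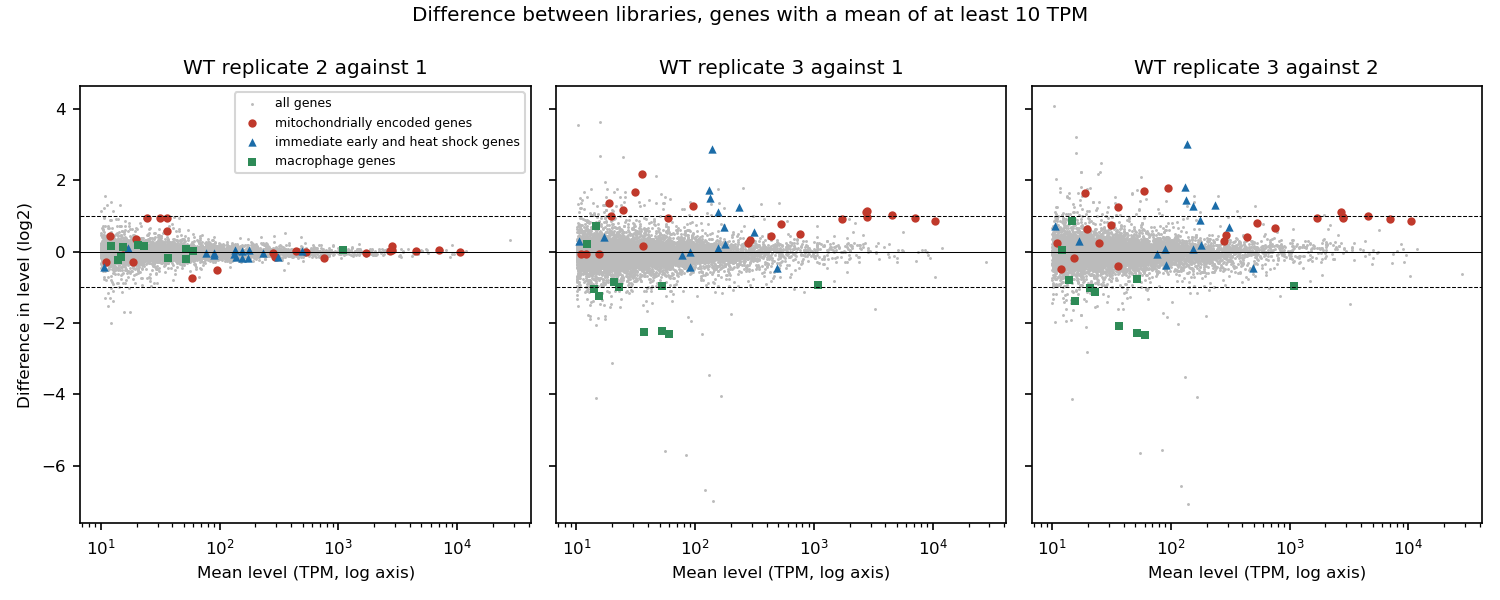
Difference in level (log2) against mean level (TPM, log axis) for the 8678 genes with a mean of at least 10 TPM, in each pair of WT libraries, with dashed lines at 2-fold. The cloud of replicates 1 and 2 is narrow, with 20 genes over 2-fold. The pairs with replicate 3, with 168 and 165 such genes, show mitochondrially encoded and several immediate early genes above it and macrophage genes below it.

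Several immediate early genes, which are induced within minutes of a stimulus, were among the least stable. Of the 15 genes of the immediate early and heat shock list with a mean of at least 10 TPM, 5 spanned more than 2-fold (33.3%). Over all 8678 genes at that level it was 222 (2.56%). Of the 15, 11 were highest in replicate 3 and 3 were lowest there, against 2784 and 4497 of the 8678. Fos had 45.0, 40.4 and 327 TPM, and its partner Fosb had 14, 13 and 413 counts. Egr1 had 74.7, 71.1 and 249 TPM, and Junb had 82.3, 85.3 and 234 TPM. The orphan receptor gene Nr4a1, outside this list, had 8.49, 11.7 and 53.1 TPM. The heat shock genes Hspa8 and Hsph1 of the same list were lowest in replicate 3, with 536, 541 and 393 TPM and 100.5, 96.9 and 74.0 TPM. With the counts of its matched pseudogenes added, Hspa8 had 1349, 1368 and 1259 TPM on the changed scale, a narrower gap. The chemokine genes Cxcl1 (3.11, 5.68 and 38.7 TPM) and Ccl2 (21.1, 29.3 and 90.7 TPM) were also highest in replicate 3, as was Ptgs2, cyclooxygenase 2, with 135, 157 and 460 TPM.

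Mitochondrially encoded genes summed to 26633, 27064 and 50755 TPM. Of the 23 with a mean of at least 10 TPM, 20 were highest in replicate 3 under each scaling that kept them, and 9 spanned more than 2-fold. Of all 8678 genes at that level, 2784 (32.1%) were highest there and 222 (2.56%) spanned more than 2-fold. mt-Cytb, cytochrome b, had 5348, 5507 and 10346 TPM, and mt-Nd1, of respiratory complex I, had 3356, 3422 and 6815 TPM. Glycolytic genes, which are nuclear, summed to 3277, 3164 and 3516 TPM. With the mitochondrially encoded genes left out of the total, the share of TPM in the 100 highest genes was 33.3% in place of 34.5%.

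Among the 20 genes with the largest ratio of highest to lowest library, the first 5 were processed pseudogenes, which are intronless copies of other genes. Rpl15-ps2 (chromosome 9, 72060937 to 72061549) had 369, 470 and 1 counts, a ratio of 133 when the lowest library is set to the floor of 3 counts. Rps13-ps1 (chromosome 8, 87047689 to 87048226) had 296, 336 and 0 counts. Rps15a-ps8 had 149, 165 and 0 counts. The protein-coding Rps3a1 belonged with them, with 686, 848 and 43 counts, while its copy Rps3a3 had 2001, 2580 and 3387. The coding part of Rpl15 differed from Rpl15-ps2 at 8 of 610 aligned bases, Rps13 differed from Rps13-ps1 at 2 of 453 and from Rps13-ps2 at 0 of 453, and Rps3a1 differed from Rps3a3 at 8 of 791. To show how few bases separate such copies, windows from the GENCODE M21 transcripts are given with the differing bases in capitals, 3 of the 8 differences for Rpl15 and both of those for Rps13. They cover coding bases 295 to 354 of Rpl15 and 370 to 429 of Rps13, counted from 1 at the start codon.
Rpl15: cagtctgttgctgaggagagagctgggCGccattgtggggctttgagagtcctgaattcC
Rpl15-ps2: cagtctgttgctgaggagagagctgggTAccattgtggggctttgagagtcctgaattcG
Rps13: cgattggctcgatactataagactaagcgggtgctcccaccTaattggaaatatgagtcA
Rps13-ps1: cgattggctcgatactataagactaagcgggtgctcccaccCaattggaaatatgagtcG
With the counts of its matched copies added, Rps13 had 101, 103 and 131 TPM, and Rps3a1 had 1723, 1826 and 1938 TPM. Rpl15 with its copies had 228, 236 and 88.1 TPM, so this gene still differed. Reads of near-identical copies cannot be assigned with certainty from the counts, and the cause of the differences in replicate 3 was not tested.

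The same copies bear on the level of common genes. Processed pseudogenes held 25.3% of TPM, and pseudogenes took 19 of the 40 highest places in the table. Division by length raises short copies in TPM. Gm10736, of 78 bases, had 2635, 3253 and 2923 counts but 11574, 11680 and 12360 TPM. Of the processed pseudogenes in the annotation, including those marked as transcribed, 2339 of 10233 matched a protein-coding transcript at 95% identity or more over 80% of their length, and these held 96.8% of the counts of these processed pseudogenes in each library. Of all counts, however, the matched pseudogenes held only 4.93%, 5.01% and 5.39%. Of 1030 parent genes, 230 had more counts in their copies than in themselves. Ppia (cyclophilin A), widely used as a reference gene, had 5.47, 7.18 and 7.71 TPM by itself, while its copy Gm10123, without a difference over 490 coding bases, had 2944, 2984 and 2989 TPM. Their first 60 coding bases are shown to make the identity visible.
Ppia: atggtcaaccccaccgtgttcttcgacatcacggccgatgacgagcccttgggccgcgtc
Gm10123: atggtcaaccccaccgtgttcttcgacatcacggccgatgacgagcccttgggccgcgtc
With the counts of its 19 copies added, Ppia reached 517, 528 and 535 TPM. Tpt1, which encodes a translationally controlled growth protein, went from 253, 246 and 253 TPM to 2446, 2494 and 2547 TPM, and Eef1a1, the elongation factor that delivers tRNA, from a mean of 7481 to 12831 TPM.

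The cytosolic ribosomal protein genes were much altered by this addition. Their share of TPM was 3.56%, 3.46% and 3.78% from the genes alone and 8.57%, 8.38% and 9.25% with the copies, and the median gene went from 87.9 to 595 TPM. Part of these rises, and of that of Gapdh, is the change of scale given above. Gapdh, the glycolytic enzyme and common reference, had 6.55, 7.93 and 8.94 TPM alone and 21.4, 24.3 and 32.0 TPM with its 83 matched copies. How reads with several matches were treated is not given, and such reads may be missing from all copies. Neither value can therefore be taken as the level of Gapdh. Reference genes without a matched copy included Actb, Gusb (49.6, 49.9 and 51.6 TPM), a lysosomal enzyme, and B2m (856, 947 and 875 TPM), the light chain of class I antigens.

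**Figure D5:**
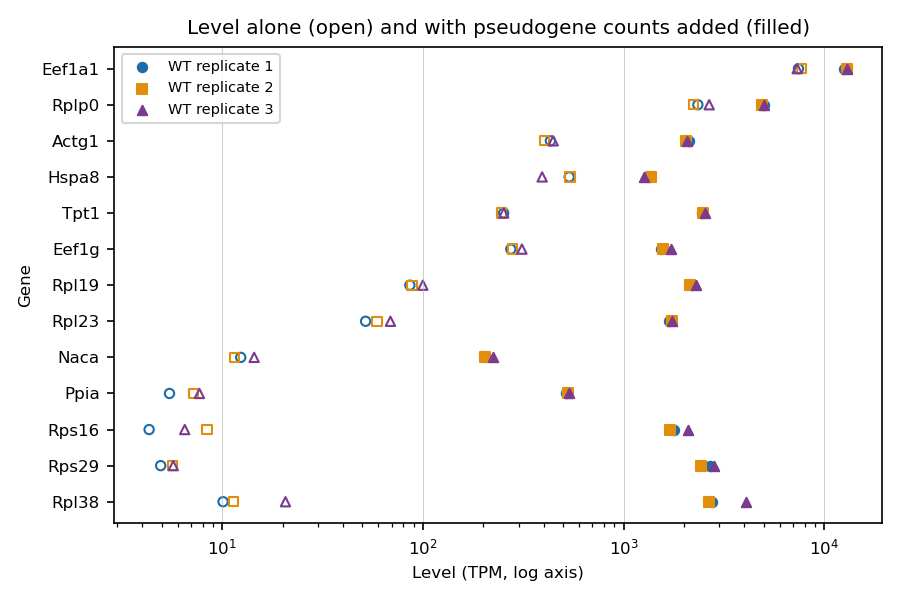
Levels in TPM (log axis) of 13 genes in each WT library, counted alone (open) and with the counts of matched processed pseudogenes added (filled). Ppia moves from between 5.47 and 7.71 TPM to between 517 and 535 TPM, and the 3 libraries lie closer to each other than the 2 ways of counting do. Part of each shift is the change of scale that the addition brings.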

How the data were processed

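RNA-seq of the 3 WT libraries was analysed. The authors deposited raw read counts per gene, with no normalization, and a gene length that sums the exons. The submitters' processing notes name CASAVA, STAR 2.7.0e, featureCounts 2.0.0, DESeq2 and the build GRCm38. The strand setting of the counting and the treatment of reads with several matches are not given in the sources used here, so overlapping, antisense and near-identical genes are uncertain. Counts were divided by length and scaled to 1000000 per library (TPM) over 55471 genes with Python 3.11.15 and pandas 2.3.3. Library depth was 8292685 to 10177214 counts. Symbols were found by identifier for 99.4% of genes, and biotypes came from GENCODE M21. Only 1 group is described, so no test was made. Values are given per library, with mean ± SD where stated. Spread was read over genes with a mean of at least 10 TPM, and a fold against a library with 3 counts or fewer was set against 3 counts per library.

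The named genes were drawn from the 40 highest by mean TPM, the markers, members of 52 gene lists from the top down with defining members near 0, the 20 with the largest ratio between libraries, reference genes and genes whose sequence is printed. Not every gene of these groups is named. Ptgs2, outside this rule, was chosen after its values were seen. Members and lists were chosen with earlier results of these data known. Pseudogenes were matched to GENCODE M21 coding transcripts with blastn 2.17.0 at 95% identity and 80% coverage. TMM factors came from edgeR 4.0.16. The scripts were tested on simulated data. Of the alternatives, 12 were planned (CPM without length, protein-coding genes only, no mitochondrially encoded genes, a filter at 10 counts, TMM, other level thresholds, each library left out), and 3 (principal transcript length, copies added to the parent gene, no genes under 200 bases) were chosen after seeing the data. A few genes are not reported here.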

Additional observations from a re-analysis of the deposited data

How the results depend on the processing

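The number of genes at 1 TPM or more in all libraries stayed within 1.5 times its value of 13544 under every alternative that was run. The shares moved by more than their SD mainly with the length and with the genes counted in the total. The share of the 100 highest genes was 34.5%, and it was 25.6% in CPM (no length), 31.9% over protein-coding genes, 33.3% without mitochondrially encoded genes, 30.7% with 1 principal transcript length and 31.2% without genes under 200 bases. The collagen share was 1.99%, and under the same alternatives, leaving out that on mitochondrial genes, it was 5.61%, 2.93%, 2.13% and 2.15%, and 2.46% with pseudogene counts added to the parent. The ribosomal protein share was 3.60%, and it was 1.69%, 4.98%, 4.15% and 3.90% in the same order, and 8.73% with pseudogene counts added. For both shares, the value with pseudogene counts added includes the change of scale given above, under which Runx2 went from 30.1 to 37.3 TPM. The median CV of 8.30% was 11.5% for genes of at least 1 TPM and 3.90% to 8.57% with 1 library left out, the lowest without replicate 3. TMM factors moved the median gene by -0.02 to 0.02 on the log2 scale. Of the recomputed levels of the 5 markers, 35 moved by less than their SD and 20 by more. No paired analysis was possible because only 1 group is described. Depth limits genes near 3 counts, 0.295 to 0.362 CPM, for which presence and absence cannot be separated.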
